A study of Mus musculus with 24 samples.

Results

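The genes followed here were 10 transcription factor genes of the primitive streak and early mesoderm: T, Mixl1, Eomes, Evx1, Tbx6, Meox1, Mesp1, Snai1, Cdx2 and Noto. They were found by gene symbol among the 23119 genes of the deposited expression table, and all 10 were listed, 1 entry each. The set was chosen by a day 7 result, the lower T and Meox1 expression of SmcHD1-mutant (KO) cells. Day 7 values are therefore given as a description with no test, and tests were run only on the other stages. RNA-seq was done on JB4/EI7HZ2 cells, female mouse embryonic stem cells (mESCs) whose parents were of the JF1 and B6 strains, in the line's unmodified form (WT) and after CRISPR–Cas9 mutation of both SmcHD1 alleles (KO). WT and KO mESCs were both grown with 2i/LIF, G418 and Zeocin. Both were taken through epiblast-like cells with Activin and FGF2 and then as embryoid bodies to day 7 and day 9 of neurectoderm differentiation, and neural stem cells (NSCs) were derived from each by a separate protocol. The 4 stages and 2 genotypes gave 8 groups of 3 replicates, 24 libraries. WT and KO were 1 line each, so a genotype effect and a difference between lines cannot be told apart.

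Smchd1 itself, the mutated gene, ranged from 1.82 to 4.40 FPKM in the 12 KO libraries and from 12.96 to 26.4 FPKM in the 12 WT libraries. An FPKM value divides a gene's fragments by its transcript length and by the library's mapped fragments, so levels can be set side by side between genes. The FPKM values come without read totals, but the smallest steps between them put the relative read number of the libraries between 0.803 and 1.16, with the median library near 1. Pluripotency markers were highest in mESCs and the neurectoderm factors Sox1 and Pax6 were at most 0.443 FPKM there and between 13.9 and 70.5 in all day 7 and day 9 libraries, as the stage labels imply. The labels give no date or batch, and no library was a copy of another.

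In the embryo, the primitive streak is where epiblast cells leave the epithelium and become mesoderm and endoderm. Wnt, Nodal and Bmp signals switch on T-box and homeobox factors there, and Snail factors lower E-cadherin so that cells can move. Cells at the tip of the streak form the node and the notochord, which keep T expression, while cells behind it form paraxial, lateral and cardiac mesoderm. Neurectoderm forms from epiblast cells that do not pass through the streak. In bulk RNA, fewer cells of a type and less RNA per cell cannot be told apart.

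Promoters were looked up in RefSeq (GRCm38.p6, a later build than the mm9 of the expression table), where 8 of the 10 genes had an entry. A T-box, a TCF/LEF and an E-box motif were searched on both strands over the 300 bases from 250 before to 50 after each start: AGGTGTG, the core that T-box factors such as T, Eomes and Tbx6 read, CTTTGAT, read by the TCF/LEF factors of the Wnt pathway, and CAGGTG, an E-box read by Snail factors. AGGTGTG was found in 5.84% of the 32851 promoters in the table, CTTTGAT in 3.73% and CAGGTG in 20.21%. A T-box core and an E-box can share bases, as CAGGTG followed by TG holds both. The T and Cdx2 promoters are shown because the genotype results turn on these genes, and Mesp1 because it was the only one of the 8 with a match to all 3 motifs. Each sequence is the 250 bases before the start, 5′ to 3′ on the gene's strand, with motif matches in capitals.
T, GRCm38.p6 chr17:8434173-8434422, plus strand: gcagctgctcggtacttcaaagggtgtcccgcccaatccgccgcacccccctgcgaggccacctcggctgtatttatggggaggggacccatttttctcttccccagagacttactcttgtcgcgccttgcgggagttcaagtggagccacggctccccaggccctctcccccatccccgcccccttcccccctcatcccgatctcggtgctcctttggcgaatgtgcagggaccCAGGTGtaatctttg
Cdx2, GRCm38.p6 chr5:147307250-147307499, minus strand: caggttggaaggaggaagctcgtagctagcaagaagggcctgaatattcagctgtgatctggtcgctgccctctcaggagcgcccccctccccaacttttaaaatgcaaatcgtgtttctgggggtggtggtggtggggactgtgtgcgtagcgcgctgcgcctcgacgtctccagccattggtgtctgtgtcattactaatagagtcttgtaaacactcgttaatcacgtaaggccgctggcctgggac
Mesp1, GRCm38.p6 chr7:79793591-79793840, minus strand: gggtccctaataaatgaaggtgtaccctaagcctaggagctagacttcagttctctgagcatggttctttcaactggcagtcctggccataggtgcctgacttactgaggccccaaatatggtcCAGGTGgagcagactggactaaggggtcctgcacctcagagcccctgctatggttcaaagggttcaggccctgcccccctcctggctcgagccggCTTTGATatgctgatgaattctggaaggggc
In T the capitals mark 1 E-box that begins at position -15, counted back from the start. In Mesp1 they mark an E-box at -126 and a TCF/LEF match at -31, and a T-box core lay at position 7 after the start, outside the stretch printed. Evx1 had a T-box core at -39 and an overlapping E-box at -37, and Snai1 an E-box at -126. Cdx2, Eomes, Tbx6 and Noto had none of the 3 motifs in this window. CpG dinucleotides numbered 34 in the Snai1 promoter, 18 in Cdx2, 17 in T, 12 in Evx1 and 10 in Eomes. They numbered 7 in Tbx6, 6 in Noto and 4 in Mesp1, beside a median of 7 over all promoters.

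Of the 10 genes, 5 had a mean of at least 1 FPKM over the 24 libraries and entered the test (T, Meox1, Cdx2, Snai1 and Eomes), among 12105 genes outside X and Y that did. Which genes pass this filter depends partly on the day 7 WT level, so the 5 do not stand for the 10. Each of the 5 kept a mean of at least 1.31 FPKM when any one of the 8 groups was left out. T, or brachyury, the T-box factor of streak and notochord (mm9 chr17:8627288-8635361), reached the highest level of the 10. In WT cells the T level of replicates 1, 2 and 3 was 11.7, 6.44 and 5.29 FPKM in mESCs, then 52.1, 132 and 124 FPKM at day 7, then 12.2, 30.2 and 21.0 FPKM at day 9, with NSCs at 0.824, 0.484 and 0.192. In KO cells it was 17.0, 9.47 and 9.84 FPKM in mESCs, then 0.719, 2.03 and 2.03 FPKM at day 7, then 3.80, 12.2 and 2.42 FPKM at day 9, with NSCs at 0.340, 0.203 and 0. WT cells thus peaked at day 7, whereas KO cells were lowest at day 7 among the stages before NSCs and were higher again at day 9. WT and KO libraries overlapped in mESCs, at day 9 and in NSCs but were far apart at day 7. In the order of the 8 group means, WT day 7 stood clear of all others, and below it WT day 9, KO mESCs, WT mESCs and KO day 9 each overlapped with the next.

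Meox1, a homeobox factor of somites (mm9 chr11:101738824-101755668), had the highest correlation with T among the 10 genes. WT levels were 1.34, 5.003 and 2.43 FPKM in mESCs, 2.88, 14.9 and 30.2 FPKM at day 7, then 2.14, 11.0 and 8.19 FPKM at day 9, and the gene was listed at 0 in the 3 WT NSC libraries. KO levels were 1.62, 3.07 and 2.23 FPKM in mESCs, 0.165, 0 and 0.207 FPKM at day 7, then 0.179, 1.49 and 0.0969 FPKM at day 9, with NSCs at 0.104, 0 and 0.357. WT replicate 1 was the lowest of its group for both T and Meox1 at day 7 and day 9, and KO replicate 2 was the highest for both at day 9. Over the 24 libraries, log2(FPKM + 1) of T and Meox1 had a Pearson r of 0.894, a description across libraries that share stages and genotypes. The 24 include the day 7 libraries by which T and Meox1 were chosen, so a high r was partly fixed by that choice. Outside the 10 genes, the most similar to T were Sox17 (r = 0.914), Cabp7 (0.904) and Aldh1a2 (0.881), and the most similar to Meox1 were Hoxb9 (0.952), Aldh1a2 (0.893) and Sox17 (0.861). The same limit holds for these genes, and Sox17 passed the filter only through WT day 7 cells.

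Cdx2, a homeobox factor of the caudal embryo, gut and trophectoderm (mm9 chr5:148112476-148118825), had its own pattern. WT levels were 6.92, 8.75 and 5.46 FPKM in mESCs, 4.60, 6.15 and 4.62 FPKM at day 7, then 0.176, 0.451 and 0.367 FPKM at day 9. KO levels were 26.9, 15.8 and 14.9 FPKM in mESCs, 0.341, 0 and 0.320 FPKM at day 7, then 0.369, 0.0904 and 0.100 FPKM at day 9, while all 6 NSC libraries were listed at 0. KO libraries were therefore all above WT in mESCs and all below WT at day 7, and the genotypes overlapped at day 9. Genes with the most similar profile were Dnajb13 (r = 0.957), Ptpn7 (0.953) and Vangl1 (0.948), all with their highest means in mESCs.

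Snai1, the zinc finger repressor of E-cadherin (mm9 chr2:167363727-167368311), was at 1.80, 3.85 and 1.99 FPKM in WT mESCs, 4.69, 5.13 and 6.80 at WT day 7 and 2.104, 4.94 and 4.64 at WT day 9. In KO cells it was at 2.19, 1.93 and 1.02 FPKM in mESCs, 2.28, 1.20 and 2.099 at day 7 and 1.56, 1.14 and 2.39 at day 9, with no peak at day 7. In NSCs the 3 WT libraries lay between 0.128 and 0.137 FPKM, and the KO libraries above them at 2.42, 0.541 and 0.259. Eomes, a T-box factor of streak, endoderm and trophectoderm and also of intermediate neural progenitors (mm9 chr9:118387307-118395250), peaked in WT day 7 cells at 4.25, 6.23 and 4.21 FPKM. KO day 7 cells had 1.46, 2.25 and 1.77 FPKM of Eomes, close to the 1.55 to 2.05 of KO mESCs. At day 9 the order of the genotypes was the opposite, with 2.09, 2.37 and 1.52 FPKM in KO and 1.32, 1.45 and 0.864 in WT cells. Genes most similar to Snai1 were Cyr61 (r = 0.900), Cldn6 (0.853) and Nptx2 (0.850), and to Eomes Epha1 (0.929), Ccdc164 (0.896) and 2310030G06Rik (0.894).

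**Figure D1:**
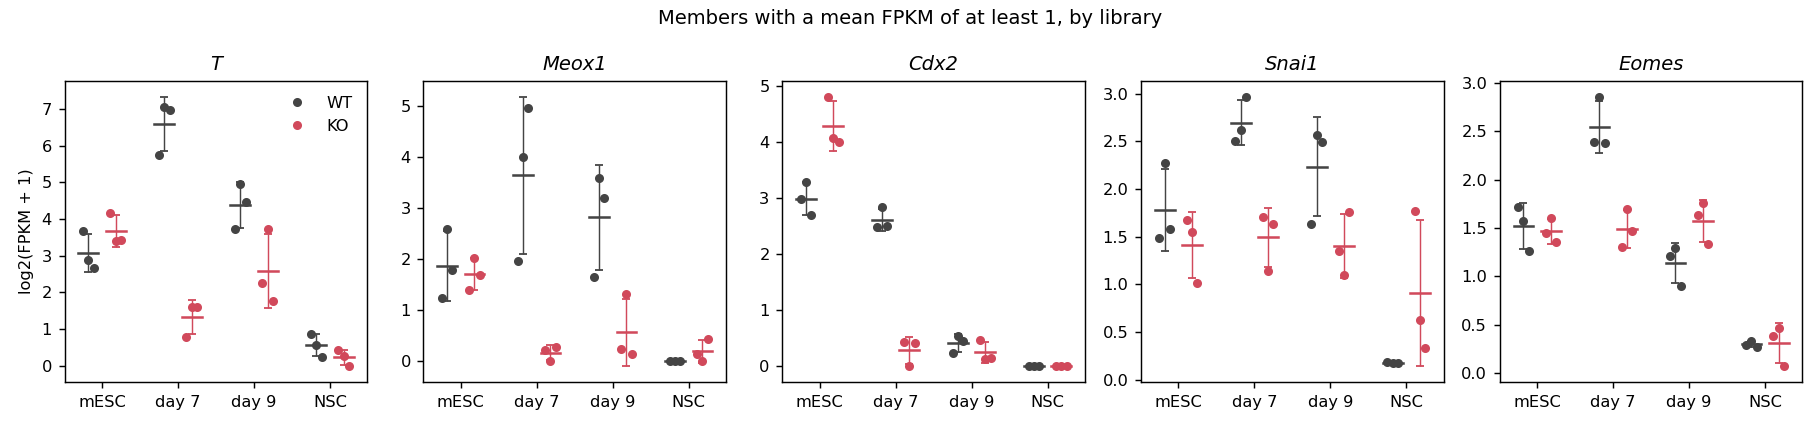
Level of T, Meox1, Cdx2, Snai1 and Eomes as log2(FPKM + 1) (vertical axis) by stage (horizontal axis). Each point is a library (WT dark, KO red), horizontal lines are group means and bars are SD (n = 3). WT day 7 libraries lie above KO day 7 libraries in all 5 panels, and Cdx2 is higher in KO than in WT mESCs.

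The other 5 genes were low, with means from 0.180 FPKM (Mesp1) to 0.787 FPKM (Noto). At this level values are multiples of what 1 read is worth. Divided by this worth, which was itself fitted to the values, those of these 5 genes lay within 0.278 of a whole number. The rounded reads given here are therefore estimates. Noto, a homeobox factor of node and notochord (mm9 chr6:85373880-85378871), was at 4.88, 8.40 and 4.89 FPKM in WT day 7 cells and at 0, 0.297 and 0 in KO day 7 cells, 129 reads against 2 in all. No other group had more than 2 Noto reads over its 3 libraries, so the gene was detected almost exclusively in WT day 7 cells. Mixl1, the homeobox factor that responds to Nodal in the streak (mm9 chr1:182623179-182627165), was at 1.85, 1.46 and 0.820 FPKM at WT day 7 and at 0, 0 and 0.0994 at KO day 7, 45 reads against 1. At day 9 Mixl1 had 0 reads in WT and 6 in KO libraries, 1 to 3 in each.

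Tbx6, the T-box factor of presomitic mesoderm (mm9 chr7:133924997-133929062), did not share the day 7 difference. It was at 1.51, 1.34 and 0.565 FPKM in WT and at 0.986, 0.412 and 1.10 in KO day 7 cells, and the libraries overlapped. Tbx6 stayed at 0.793 to 1.53 FPKM in WT and 1.28 to 1.42 in KO day 9 cells. Mesp1, the bHLH factor of early cardiac and cranial mesoderm (mm9 chr7:86937127-86938476), had 6 reads in WT and 0 in KO day 7 libraries, and 8 and 0 at day 9. With 0 reads in a group, an upper limit of 3 reads holds, by counting error only. Evx1, a homeobox factor of the posterior streak (mm9 chr6:52258383-52268372), was at 0.197, 0.0758 and 0.0799 FPKM in WT and 0, 0.155 and 0.0777 in KO day 7 cells. At day 9 it was at 2.37, 0.983 and 0.334 FPKM in WT and 0.134, 0.591 and 0.363 in KO cells, 57 reads against 16, and the genotypes overlapped. In mESCs it ranged from 0.287 to 1.61 FPKM in WT and from 0.528 to 2.00 in KO cells. Its locus overlaps that of 5730457N03Rik, so its reads cannot be assigned with certainty where the counting used no strand.

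**Figure D2:**
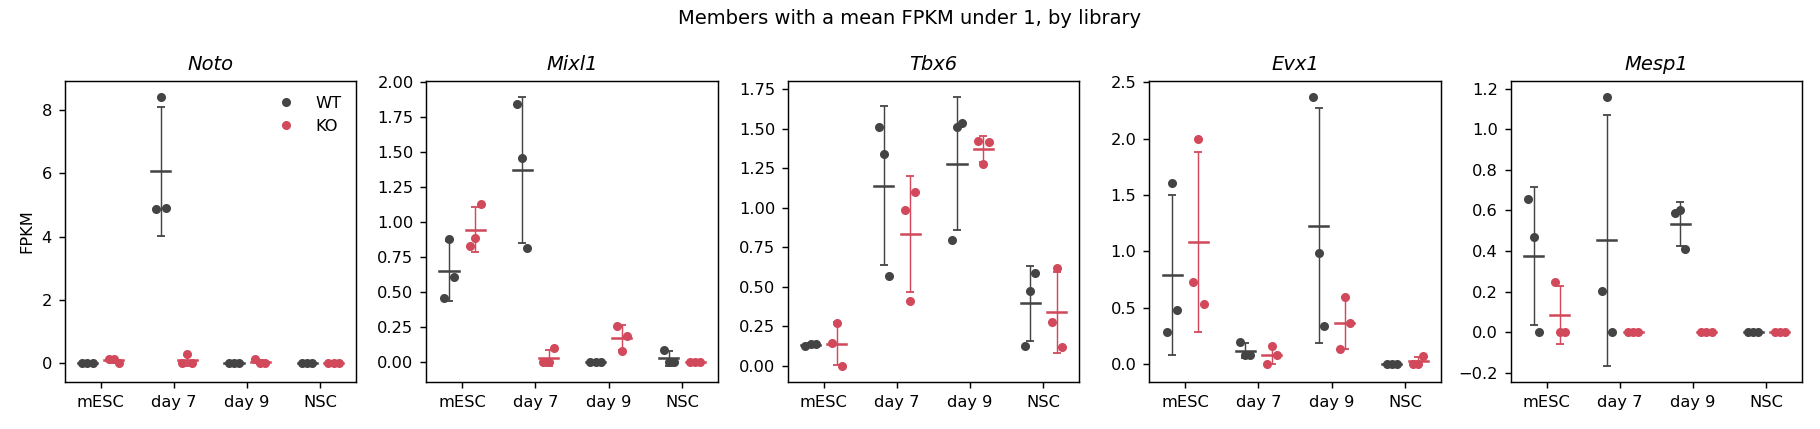
Level of Noto, Mixl1, Tbx6, Evx1 and Mesp1 in FPKM (vertical axis, a different range in each panel) by stage. Points are libraries (WT dark, KO red), lines are group means and bars are SD (n = 3). Noto exceeds 1 FPKM only in the 3 WT day 7 libraries, and Tbx6 overlaps between genotypes at each stage.

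At day 7, KO libraries were below WT libraries without overlap for 7 of the 10 genes (T, Mixl1, Eomes, Meox1, Snai1, Cdx2 and Noto), beside 10.9% of the 18156 genes above 0. All 5 tested genes were among them, beside 12.3% of the tested genes. Since the set was chosen at this stage, nothing is read from these shares. The differences of the log2(FPKM + 1) means, KO minus WT, were -5.26 for T, -3.47 for Meox1, -2.66 for Noto, -2.33 for Cdx2, -1.20 for Snai1, -1.18 for Mixl1 and -1.05 for Eomes. They were -0.46 for Mesp1, -0.21 for Tbx6 and -0.05 for Evx1. The pseudocount of 1 understates the change of low genes. Against mESCs of the same genotype, T was higher by 3.51 at day 7 in WT cells and lower in KO cells, with a difference of -2.34. Eomes and Snai1 were above their mESC level by 1.02 and 0.91 in WT day 7 cells, and differed from it by 0.02 and 0.08 in KO day 7 cells.

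In mESCs, before differentiation, Cdx2 was the one gene of the 5 that passed the test. Cdx2 rose to 19.2 ± 6.70 FPKM (mean ± SD, n = 3) in KO from 7.04 ± 1.65 in WT mESCs, a log2 fold change of 1.30 (SE 0.20, 95% interval 0.89 to 1.71, limma adjusted p = 0.0015). Cdx2 was 1 of 14 genes that rose, 0.116% of those tested. The libraries did not overlap, as for 4.08% of genes above 0 in this direction. The call was lost in a fit to the 6 mESC libraries alone (adjusted p = 0.30) or when 0.1 was added to FPKM in place of 1 (adjusted p = 0.25), and over all alternatives the adjusted p ran from 0.0012 to 0.30. With the replicate number as a block the adjusted p was 0.0097, and 98 genes were called in place of 64. T was at 12.1 ± 4.24 FPKM in KO and 7.80 ± 3.39 in WT mESCs (log2 fold change 0.59, SE 0.44, limma adjusted p = 0.85), and Meox1, Snai1 and Eomes differed by -0.16, -0.37 and -0.05, none past the threshold.

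The day 9 libraries took no part in choosing the genes, but the spread in the test came from all 24 libraries, day 7 included. Whether same-numbered day 7 and day 9 libraries deviated together was not tested. At day 9, T and Meox1 fell in KO cells. The difference was -1.80 for T (SE 0.44, 95% interval -2.72 to -0.87, limma adjusted p = 0.016) and -2.25 for Meox1 (SE 0.56, -3.43 to -1.07, adjusted p = 0.017), beside 4.11% of tested genes that fell. For T the lowest WT library (12.17 FPKM) lay just under the highest KO library (12.19 FPKM), and for Meox1 no libraries overlapped. Both calls were lost when any one of WT replicate 2, WT replicate 3, KO replicate 1 or KO replicate 3 was left out. Over all 6 omissions the difference ran from -2.36 to -1.39 for T and from -2.83 to -1.86 for Meox1. They were also lost with only the day 9 libraries in the fit (adjusted p = 0.16 for T and 0.062 for Meox1), and T with a pseudocount of 0.1 (adjusted p = 0.080). Among the alternatives, adjusted p values of T lay between 1.2e-04 and 0.16 and those of Meox1 between 0.0030 and 0.12. Snai1 differed by -0.83 (SE 0.32, adjusted p = 0.14), Eomes by 0.44 (SE 0.17, adjusted p = 0.17) and Cdx2 by -0.17 (SE 0.20, adjusted p = 0.77), none past the threshold, though Snai1 passed without WT replicate 1 (difference -1.13, adjusted p = 0.043). Over the 5 genes the median log2 fold change was -0.83, beside 0 over all tested genes. Without overlap, Meox1 and Mesp1 were lower in KO cells and Mixl1 and Eomes higher, beside 13.9% of genes above 0 lower and 12.2% higher.

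In NSCs, 0 of the 5 genes passed the limma test between genotypes, beside 6.02% of tested genes, and 1 of the 5, Snai1, had an unadjusted p under 0.05, beside 18.1%. Snai1 was at 1.07 ± 1.17 FPKM in KO and 0.131 ± 0.00522 in WT NSCs, a difference of 0.73 (SE 0.32, adjusted p = 0.21). KO NSCs were above WT NSCs without overlap for Snai1, as for 7.06% of genes above 0 in this direction. With a pseudocount of 0.1 it passed (adjusted p = 0.035, range over all alternatives 0.035 to 0.68), and the KO mean rested mostly on replicate 1 (2.42 FPKM). The replicate block called 1145 genes in place of 729 in NSCs but none of the 5.

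**Figure D3:**
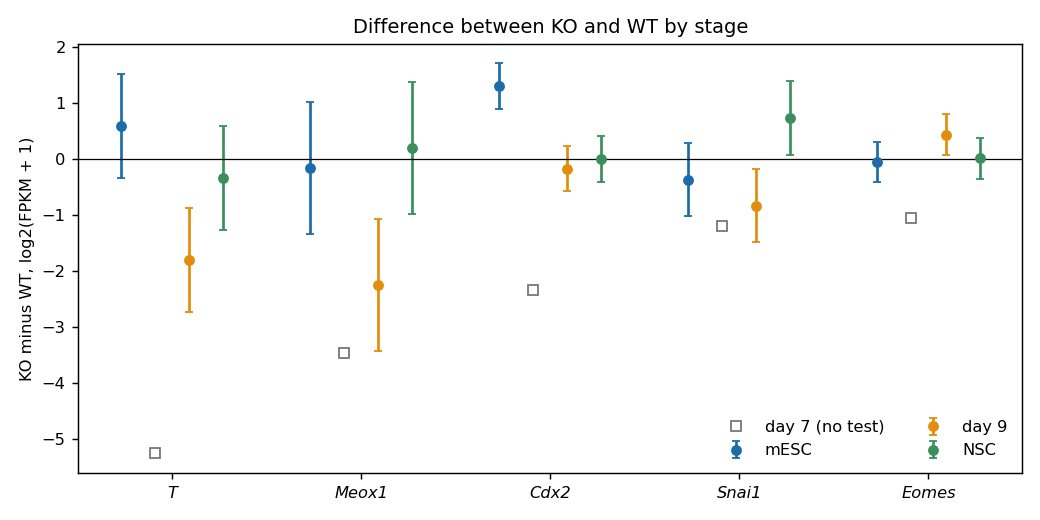
Difference in log2(FPKM + 1) between KO and WT cells (vertical axis) for 5 genes (horizontal axis) by stage (colour). Filled points are limma estimates with 95% intervals, and open squares are day 7 differences with no test. The Cdx2 interval lies above 0 in mESCs, and those of T and Meox1 lie below 0 at day 9. At day 9 the Snai1 interval also lies below 0 and the Eomes interval above 0, and in NSCs the Snai1 interval lies above 0. Snai1 and Eomes did not pass after adjustment.

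The difference between the KO effects in mESCs and at day 9 was tested as an interaction. Cdx2 had a KO effect 1.47 lower at day 9 than in mESCs, an interaction of -1.47 (SE 0.28, limma adjusted p = 0.0032), and T an interaction of -2.39 (SE 0.63, adjusted p = 0.046), beside 1.35% of tested genes that were lower in this comparison. The Cdx2 call held without each of the 12 libraries in turn, and the T call held only without WT mESC replicate 1, WT day 9 replicate 1 or KO day 9 replicate 2, and was lost without each of the other 9. With a pseudocount of 0.1 both calls were lost (adjusted p = 0.14 for Cdx2 and 0.18 for T), and that of T also with a pseudocount of 0.5 (adjusted p = 0.064) or only the groups compared (adjusted p = 0.12). Meox1 had a similar value, -2.09 (SE 0.80, adjusted p = 0.23), but did not pass. At day 9 Cdx2 was below 0.5 FPKM in all 6 libraries.

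From mESCs to day 9, T rose in WT cells by 1.31 (SE 0.44, limma adjusted p = 0.013), beside 36.4% of tested genes, and fell in KO cells with a difference of -1.08 (SE 0.44, adjusted p = 0.036), beside 35.6%. Cdx2 fell in both, with differences of -2.58 in WT (beside 35.1% of tested genes) and -4.05 in KO cells. Meox1 differed by 0.95 in WT (adjusted p = 0.14) and -1.14 in KO cells (adjusted p = 0.077), and Snai1 by 0.45 and -0.01, none past the threshold. Eomes differed by -0.38 in WT (adjusted p = 0.054) and 0.10 in KO cells (adjusted p = 0.61). Some of these passed under other settings. Meox1 passed in KO cells with pseudocounts of 0.1 and 0.5, with only the groups compared, with the replicate block and without day 9 replicate 2 (adjusted p from 0.011 to 0.036), and in WT cells without day 9 replicate 1 (adjusted p = 0.022). In WT cells Eomes passed with the replicate block (adjusted p = 0.027) and without mESC replicate 3 or day 9 replicate 2, and Snai1 with same-sum scaling (adjusted p = 0.048) and without day 9 replicate 1 (adjusted p = 0.049). The T call in KO cells was lost without KO mESC replicate 1 and without day 9 replicate 1 or 3, and in WT cells without mESC replicate 3 or day 9 replicate 2. In KO cells it was also lost with a pseudocount of 0.1 (adjusted p = 0.081), with only the groups compared in the fit (adjusted p = 0.13) and when libraries were scaled to the same sum (adjusted p = 0.10), and in WT cells with a pseudocount of 0.1 (adjusted p = 0.0502). The same-sum scaling moved the median of all tested genes by 0.32 in WT and 0.24 in KO cells. On that scale T differed by 1.65 in WT and -0.82 in KO cells.

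With no filter on low values, Mixl1 was lower at day 9 than in mESCs, with log2 differences of -0.72 in WT and -0.73 in KO cells (limma adjusted p = 3.57e-05 and 2.93e-05), and Tbx6 rose by 0.99 and 1.07 (adjusted p = 1.9e-04 and 8.5e-05). In this fit 58.1% of all genes above 0 changed in WT and 56.6% in KO cells. The genotype difference of Tbx6 at day 9 was 0.08 (SE 0.20, 95% interval -0.33 to 0.48, adjusted p = 0.98). In NSCs all 5 tested genes were lower than in WT mESCs, with differences from -2.99 (Cdx2) to -1.22 (Eomes), beside 38.3% of tested genes. In KO NSCs T, Cdx2, Eomes and Meox1 were lower than in KO mESCs, with differences from -4.29 (Cdx2) to -1.16 (Eomes), beside 38.2%. The Meox1 call in KO cells was lost without mESC replicate 2 or NSC replicate 2. Snai1 differed by -0.50 (adjusted p = 0.15), and by -0.93 without NSC replicate 1 (adjusted p = 0.0067). In the unfiltered fit Mixl1 and Evx1 were also lower in NSCs of both genotypes, beside 32.2% of genes in WT and 30.9% in KO cells.

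Genes of the tissues that arise from the streak were read from lists, chosen with earlier results known. A listed gene can pass the filter only through the group where it is high, and such genes are named as they come, with the adjusted p of the fit to all genes above 0 that has no filter. All 7 genes of the node and organizer list were lower in KO day 7 cells without overlap, beside 12.3% of tested genes, with a median difference of -2.43, beside -5.2e-04 over all tested genes. Foxa2, a forkhead factor of node, floor plate and endoderm, was at 15.1 to 37.8 FPKM in WT and 0.344 to 1.404 in KO day 7 cells, and Shh, the signal of notochord and floor plate, at 4.27 to 24.2 and 0.0672 to 0.169. Chrd, a Bmp antagonist, was at 8.16 to 13.2 and 0.608 to 0.812 FPKM, and Foxj1, a factor of motile cilia, at 5.31 to 11.8 and 0.697 to 1.3998. At day 9, 2 of the 7 passed the test in KO cells, beside 4.11% of tested genes that fell, where Foxa2 fell by 2.85 (SE 0.40) and Shh fell by 2.85 (SE 0.47) on the log2 scale, with limma adjusted p = 7.1e-05 and 4.2e-04, and the median of the list was -0.59, beside 0 over all tested genes. Lhx1 differed by -0.60, Chrd by -0.59, Foxj1 by -0.32 and Nog by -0.20, none past the threshold. Gsc ran the other way without overlap, at 0.903 to 1.48 FPKM in KO and 0.353 to 0.722 in WT day 9 cells, beside 12.2% of genes above 0. Its difference of 0.57 did not pass (limma adjusted p = 0.14). Lhx1, Nog and Gsc are named after their values were seen. The summed list was lowest in WT replicate 1 (50.7 FPKM at day 7, 64.6 at day 9) and highest among KO day 9 libraries in replicate 2 (35.3, against 13.98 and 15.01), the same libraries that stood apart for T. The part of node and floor plate cells in the T values was not tested.

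Of 16 paraxial mesoderm genes, 8 were tested. At day 9, 3 of these passed the test, beside 4.11% of tested genes that fell, named after their values were seen: Foxc1 fell by 1.79, Foxc2 fell by 1.91 and Aldh1a2 fell by 1.78 on the log2 scale in KO cells. The other 5 did not pass, with values of -0.49 for Dll3, 0.18 for Lfng and Tcf15, 0.38 for Dll1 and 0.47 for Uncx, the last also named after its value was seen, and the median of the 8 was -0.16, beside 0 over all tested genes. The summed list overlapped at day 9, at 139.9 to 158 FPKM in WT and 128.9 to 155 in KO cells. Most of this sum was Lfng, Dll1 and Dll3, with WT day 9 means of 42.9, 35.4 and 37.7 FPKM. Without overlap at day 9, Foxc1, Foxc2, Aldh1a2, Meox2, Pax9 and Tbx18 were lower in KO cells and Lfng and Dll1 higher, beside 13.9% and 12.2% of genes above 0. Meox2, Pax9 and Tbx18 were not tested and are named after their values were seen. Foxc2 passed the filter only through WT day 7 and WT day 9 cells, where it is high (adjusted p = 0.0047 with no filter). At day 7, 5 of the 8 were lower in KO cells without overlap and 1 was higher, beside 12.3% and 11.6% of tested genes. The Notch pathway genes, which neural progenitors also express, differed among themselves. Lfng overlapped between genotypes (19.98 to 23.8 FPKM in KO and 17.7 to 24.4 in WT), Dll1 was higher in KO cells (9.86 to 14.5 against 7.34 to 7.98) and Dll3 lower (3.18 to 3.72 against 7.33 to 11.5). Tcf15 was at 10.6 to 41.1 FPKM in WT and 5.41 to 7.42 in KO day 7 cells. Of 8 lateral and cardiac mesoderm genes found, 2 were tested, and Tbx20, a cardiac T-box factor, fell by 2.88 at day 9 (6.29 to 11.7 FPKM in WT and 0.146 to 1.02 in KO). Tbx20 was called beside 4.11% of tested genes that fell, and it passed the filter only through WT day 9 cells, the group it was compared with (limma adjusted p = 1.1e-08 with no filter). The other tested gene, Pdgfra, a growth factor receptor of mesoderm, differed by -0.68 and did not pass (adjusted p = 0.36). Hand1, a factor of lateral mesoderm below the filter, overlapped at day 9, at 0.737 to 1.72 FPKM in WT and 0.104 to 2.06 in KO cells. Tal1, a blood and endothelial factor that the filter left out, was at 4.87 to 5.98 and 0.227 to 1.42 FPKM at day 9.

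Among the signals that induce the streak, 7 of 8 genes were tested. At day 9 Wnt3 rose by 2.23 (SE 0.23, limma adjusted p = 8.0e-07, named after its values were seen) and Lefty2, a Nodal antagonist and target, by 1.17 (SE 0.19, adjusted p = 3.4e-04), beside 2.58% of tested genes that rose. Wnt3 was at 7.58 ± 2.24 FPKM in KO and 0.816 ± 0.415 in WT day 9 cells, the opposite order to T. It passed the filter only through KO day 9 cells, where it is high (limma adjusted p = 9.8e-07 with no filter). Nodal, at 2.78 to 5.31 FPKM in KO and 2.04 to 2.55 in WT day 9 cells, did not pass. Of the 7, 6 had values above 0 at day 9, with a median of 0.70 beside 0 over all tested genes. Bmp4 ran the other way, at 0.434 to 0.702 FPKM in KO and 1.34 to 2.25 in WT day 9 cells without overlap, a difference of -0.85 that did not pass (limma adjusted p = 0.22). At day 7, 4 of the 7 were lower in KO cells without overlap and 0 higher, beside 12.3% and 11.6% of tested genes. Fgf8, a signal of streak cells, was at 10.4 to 14.7 FPKM in KO and 17.9 to 38.6 in WT day 7 cells, and Lefty2 at 14.8 to 17.9 and 19.03 to 31.0, with Fgf4 and Bmp4 the other two (Fgf8 and Bmp4 named after their values were seen). Tdgf1, the Nodal co-receptor gene and the most abundant of the list, overlapped at 33.8 to 52.9 FPKM in KO and 42.4 to 88.6 in WT day 7 cells, and at day 9 it differed by 0.70 (limma adjusted p = 0.064). Nodal overlapped, at 11.2 to 14.1 FPKM in KO and 13.8 to 18.4 in WT cells. Of the caudal epiblast genes, 0 of 5 passed the limma test in mESCs, beside 0.116% of tested genes that rose and 0.413% that fell. An unadjusted p under 0.05 was reached by 3 of the 5, beside 7.66% of tested genes. Sp5 and Cdx1, both Wnt targets, were at 80.7 to 89.4 and 53.8 to 75.7 FPKM in KO against 31.9 to 54.8 and 36.7 to 52.6 in WT mESCs, differences of 0.99 (adjusted p = 0.066) and 0.55 (adjusted p = 0.16). Of the other 3, Nkx1-2 differed by 1.00 (adjusted p = 0.35), Cyp26a1 by -0.11 (adjusted p = 0.97) and Fgf17, named after its value was seen, by -0.54 (adjusted p = 0.79).

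Among the epithelial-mesenchymal transition genes, 5 of 7 were tested and 2 fell at day 9, beside 4.11% of tested genes. Cdh1, E-cadherin, which Snai1 represses, fell by 0.75 (SE 0.17, limma adjusted p = 0.0086), and Zeb1, another repressor of it, fell by 0.51 (SE 0.11, adjusted p = 0.0050). Cdh2, N-cadherin, differed by 0.26 (adjusted p = 0.30) and Twist1 by -0.71 (adjusted p = 0.35), neither past the threshold. At day 7 Cdh1 was at 19.5 to 30.4 FPKM in KO and 38.8 to 41.7 in WT cells, beside the lower Snai1 of KO cells.

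Cdx2 and Eomes are also trophectoderm genes, and Eomes marks intermediate neural progenitors, so markers of these cells were read beside them. Of 6 trophectoderm genes found, 4 were tested. Only Krt18 passed in mESCs, where it was lower in KO cells (-1.43, SE 0.24, limma adjusted p = 0.0056), beside 0.413% of tested genes that fell, while Cdx2 was higher. Tfap2c was at 26.4 to 37.8 FPKM in KO and 23.9 to 32.9 in WT mESCs, and Ascl2, which passed the filter only through KO mESCs, at 2.67 to 2.91 and 2.18 to 2.72 (adjusted p = 0.99 with no filter). At day 7 the simple-epithelium keratins Krt8 and Krt18 were at 162 to 317 and 119 to 242 FPKM in WT and at 50.1 to 89.3 and 49.1 to 91.5 in KO cells. These 2 of the 4 did not overlap, beside 12.3% of tested genes that were lower, and Tfap2c and Ascl2 overlapped. At day 9 Krt8 fell by 1.27 and Krt18 fell by 1.23 in KO cells (limma adjusted p = 0.0014 and 0.0022), beside 4.11% of tested genes that fell. Tfap2c differed by -0.15 (adjusted p = 0.83) and Ascl2 by 0.11 (adjusted p = 0.88), neither past the threshold. Neurog2 was at most 1.59 FPKM and Neurod1 at most 0.373 in the day 7 libraries, where Eomes peaked. At day 9, where Eomes was higher in KO libraries, Neurod1 fell by 1.19 in KO cells (SE 0.22, adjusted p = 8.9e-04), but it passed the filter only through WT day 9 cells (adjusted p = 8.3e-04 with no filter). Tbr1, which the filter left out, ran the same way as Eomes, at 0.333 to 0.791 FPKM in KO and 0.0908 to 0.189 in WT day 9 cells, and Neurog2 overlapped at 8.996 to 12.5 and 10.99 to 16.4.

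Of the 7 endoderm genes, 5 were lower in KO day 7 cells without overlap, beside 10.9% of genes above 0, while Afp and Ttr, named after their values were seen, were at most 0.210 FPKM in both genotypes. Cer1 was at 40.9 to 101 FPKM in WT and 0.215 to 3.10 in KO day 7 cells, and Sox17 at 2.57 to 8.44 and 0 to 0.0710, and both passed the filter only through WT day 7 cells. At day 9 Foxa1 alone of the 3 tested endoderm genes passed, and it fell by 1.91 (SE 0.30, limma adjusted p = 2.2e-04), but it entered the test only through WT day 9 cells (adjusted p = 2.8e-04 with no filter). That is 1 of 3, beside 4.11% of tested genes that fell. Sox17 differed by -0.73 (adjusted p = 0.13) and Cer1 by 0.51 (adjusted p = 0.48), neither past the threshold. Gata6, an endoderm factor below the filter, was at 1.35 to 2.57 FPKM in WT and 0 to 0.166 in KO day 7 cells and overlapped at day 9. Of 6 neurectoderm genes, 4 rose in KO day 9 cells, beside 2.58% of tested genes: Sox1 by 0.74, Pax6 by 0.83, Lhx2 by 1.20 and Zic1 by 3.53, the last pair named after their values were seen. At day 7, 3 of the 6 were higher in KO cells without overlap and 1 was lower, beside 11.6% and 12.3% of tested genes. Sox1 was at 57.9 to 70.3 FPKM in KO and 33.1 to 45.1 in WT day 7 cells, whereas Nes, an intermediate filament gene of neural progenitors, was at 24.5 to 33.7 and 38.03 to 48.6. At day 9 Nes differed by -0.39 (adjusted p = 0.48), and it did not pass, nor did Sox2, with 0.33 (adjusted p = 0.17). Of the pluripotency genes, Pou5f1 was at 190 to 284 FPKM in KO and 181 to 264 in WT day 7 cells, and at day 9, by limma, 0 of the 5 passed, beside 4.11% of tested genes that fell and 2.58% that rose, with 1 at an unadjusted p under 0.05, beside 17.3%. Their differences were 0.45 for Pou5f1, 0.47 for Nanog (listed together with Nanogpd), 0.35 for Esrrb and 0.02 for Klf4. The 5 genes summed to 419.5 FPKM in WT day 7 replicate 1, the library lowest in T and Meox1, and to 270.4 and 265.8 in the other WT replicates. At day 9 WT replicate 1 was again the lowest WT library in T and Meox1, but its sum of 70.3 FPKM lay between the others (54.9 and 82.8). The part of these cell types in the T and Meox1 values was not tested. Over all lists, 54 genes were tested, of which 12 fell and 6 rose at day 9, beside 4.11% and 2.58% of all tested genes. All 18 were also called with no filter, and 5 of them passed the filter only through a day 9 group. In mESCs 1 fell, beside 0.413%, with 8 at an unadjusted p under 0.05, beside 7.66%, and in NSCs 3 rose (Gsc, Foxa1 and Zic1) and 1 fell (Sox2), beside 2.54% and 3.48%, with Gsc and Zic1 named after their values were seen.

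**Figure D4:**
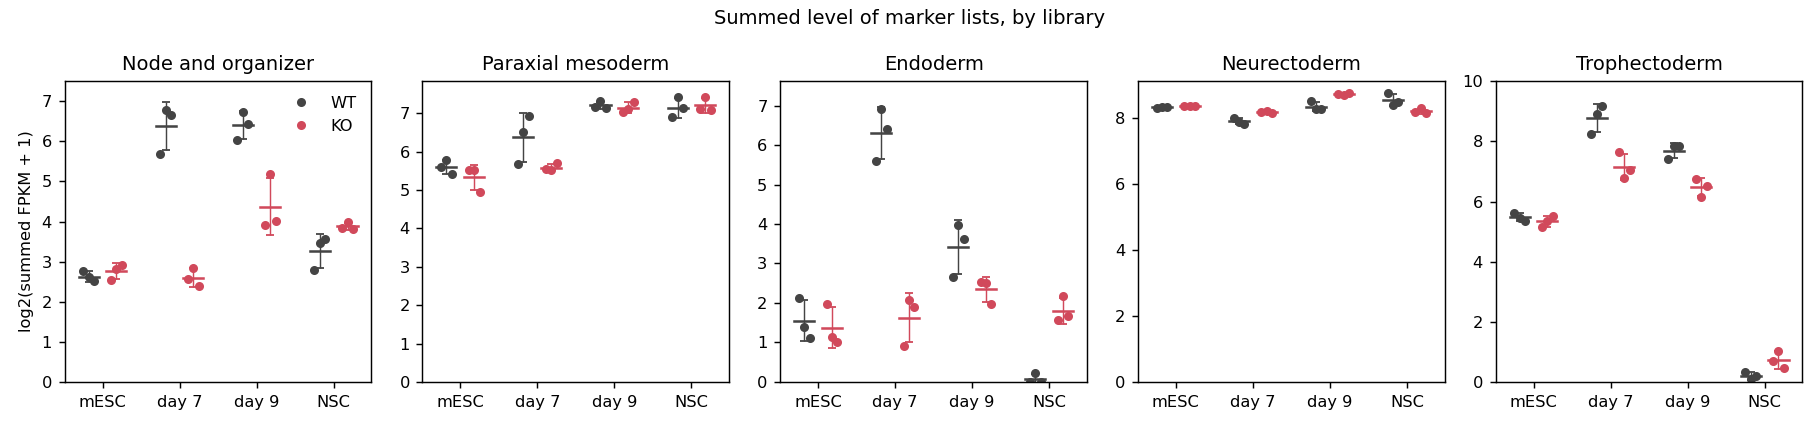
Summed FPKM of 5 marker lists as log2(sum + 1) (vertical axis) by stage (horizontal axis). Points are libraries (WT dark, KO red), lines are means and bars are SD (n = 3). The summed node and organizer list separates WT from KO at day 7 and day 9, and the neurectoderm sum is higher in KO at both. At WT day 9 most of the node and organizer sum is Foxa2 and Shh (means 36.9 and 32.1 FPKM). Most of the paraxial mesoderm sum there is Lfng, Dll1 and Dll3.

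The nearest genes on each side of T and Meox1 with a mean of at least 1 FPKM were read as well, and any nearer gene below it was passed over. Gm16702, 11.7 kb from T on one side, was at 12.3 to 15.2 FPKM in WT and 8.38 to 10.6 in KO day 7 cells. Pde10a, 359248 bases from T on the other side, was at 1.07 to 1.59 and 1.41 to 1.63. For Meox1, Etv4, 92199 bases away, was at 5.01 to 7.22 and 3.18 to 3.60 FPKM, and Dusp3, 76789 bases away, at 4.73 to 5.62 and 3.64 to 3.94. Gm16702, Etv4 and Dusp3 were thus lower in KO day 7 cells without overlap, beside 12.3% of tested genes, and Pde10a overlapped. At day 9 Etv4 was higher in KO cells without overlap, at 2.19 to 3.36 FPKM against 0.723 to 1.48 in WT cells, and the other 3 flanking genes overlapped.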

How the data were processed

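Poly(A) RNA-seq reads were processed by the authors with Trim Galore 0.6.6 and TopHat2 2.1.1 against mm9, reads of ribosomal RNA and the X chromosome were removed, and Cuffdiff gave the deposited FPKM of each gene and library, with an estimate status beside it. The library normalization and strand setting of Cuffdiff are not given in the sources used here. Of 36 FPKM columns, 12 belong to samples outside the 24 and were not used. The 10 genes (members) and the lists were chosen with earlier results of these data known. Genes named were Smchd1, the 10 members, the genes of each list with the highest group mean (up to 4), the 3 genes most correlated with each tested member, and the nearest neighbours of T and Meox1 with a mean FPKM of at least 1, and listed genes outside this rule are marked in the text as named after their values were seen.

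Genes outside X and Y with a mean of at least 1 FPKM and no failed estimate were tested on log2(FPKM + 1) with limma 3.58.1 (R 4.3.3): all 8 groups in 1 fit, robust eBayes with a trend, two-sided tests, Benjamini-Hochberg over the 12105 genes, called at an adjusted p under 0.05. In simulated day 9 data, 85 of 100 genes changed by 1 log2 unit and 99 of 100 changed by 2 were recovered, with 11 false calls. Recovery where the spread of a gene differs between groups was not tested. In genes with a mean of up to 0.3 FPKM, 97.12% of 31400 values above 0 were whole multiples of 1 read (tolerance 0.1 read). The worth of 1 read was fitted to these same values, so a high share was partly built in and is no separate check. The steps give relative depth only, so no count test was run. The study describes the replicates of this line and its differentiation intermediates as biologically independent, and the p-values measure the spread between these libraries, of 1 line per genotype. An exact permutation test of 3 against 3 cannot go below p = 0.1 and was not used. Same-numbered WT and KO libraries, paired by the replicate numbers in the labels, deviated together in mESCs (r = 0.29, 0.44 and 0.14) and NSCs (0.34, 0.18 and 0.24) but not at day 9. The block is therefore given beside the first 2, for the members and not for the listed genes. In the other comparisons it is an alternative only. Day 9 and mESC libraries of a genotype did not deviate together (WT r = -0.036, 0.019 and 0.055, KO r = -0.026, 0.045 and -0.0099). Alternatives were the pseudocounts 0.1 and 0.5, no filter, scaling to the same sum, only the groups compared, the replicate block, and leaving out each library.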

Additional observations from a re-analysis of the deposited data

Results flagged for a closer look

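The KO effect on 2 genes differed between mESCs and day 9 by the interaction term of the limma fit. T had a log2 interaction of -2.39 (SE 0.63, adjusted p = 0.046, range over the alternatives 5.7e-04 to 0.18), with KO above WT on average in mESCs and below it at day 9. Cdx2 had an interaction of -1.47 (SE 0.28, adjusted p = 0.0032, range 0.0021 to 0.14), with KO libraries above WT in mESCs and both genotypes below 0.5 FPKM at day 9. Groups held 3 libraries each, too few for a test of single outlying libraries.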

How the results depend on the processing

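The 40 log2 fold changes of tested members were recomputed 510 times: 459 kept direction and side of the threshold, 37 lost the call, 14 gained it and 0 called values changed sign. Where counts of calls moved, the cause was not tested. With a pseudocount of 0.1, members called numbered 0 in place of 1 for KO against WT in mESCs, 1 in place of 2 at day 9, 1 in place of 0 in NSCs, 1 in place of 2 for WT day 9 against mESCs and 0 in place of 2 for the interaction, where 165 genes were called in place of 324. With a pseudocount of 0.5 the interaction called 1 member. With only the groups compared, members called were 0 in mESCs, 0 at day 9 and 1 for the interaction, and genes called were 1 in mESCs in place of 64, 1377 at day 9 in place of 809 and 58 in NSCs in place of 729. Without the filter, in which more genes are tested, genes called were 164 in mESCs, 1221 at day 9 and 537 for the interaction, and 4 members each were called for day 9 against mESCs in WT and in KO cells, in place of 2. In KO day 9 against KO mESCs the count can stay the same while T is lost and Meox1 gained, as with a pseudocount of 0.1. Scaling to the same sum called 42 genes in mESCs and 1 member in KO day 9 against KO mESCs.

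The replicate block called 98 genes in mESCs and 1145 in NSCs. It added Eomes in WT and Meox1 in KO day 9 against mESCs (adjusted p = 0.024 for Meox1), and it changed no other member call. At day 9 same-numbered libraries did not deviate together (r = 0.015, 0.029 and -0.11).

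Leaving out 1 library, members called ranged from 0 to 3 for KO against WT at day 9, 2 to 4 for WT day 9 against mESCs, 1 to 3 for KO day 9 against mESCs and 1 to 2 for the interaction. Genes called ranged from 20 to 112 in mESCs (lowest without KO replicate 3, highest without WT replicate 2), 449 to 752 at day 9 (lowest without WT replicate 2), 406 to 1352 in NSCs (lowest without KO replicate 3, highest without WT replicate 1) and 181 to 360 for the interaction. Depth was estimated only in relative terms, and the 5 members under 1 FPKM rest on few reads.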
